A study of Mus musculus with 23 samples.

Results

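A nerve terminal releases transmitter from synaptic vesicles, and 40 genes of that machinery were followed here through the axons and cell bodies of cultured mouse hippocampal neurons grown with or without a mechanical pull. The genes were given as a list of symbols covering vesicle proteins, the fusion machinery, the active zone and transmitter handling, and all 40 were found among the 55487 gene IDs counted in each library.

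Cells came from the hippocampi of C57Bl/6 mice at postnatal day 1, and 200000 cells were seeded on the soma side of a microfluidic chamber, a device whose channels let axons, but few cells, reach a separate side. Every culture, controls included, received medium with 5 µg/ml of magnetic nanoparticles (MNPs). A field gradient of 50 T/m then acted on the stretched cultures, which the labels call treated, from day in vitro 1 to 6, whereas controls had a null gradient. RNA was taken from the axonal side, labelled a pure axonal preparation, or from the soma side, labelled total cell culture and also described as the somatodendritic compartment, giving 5 libraries of control axon and 6 each of stretched axon, control soma and stretched soma. The labels do not say whether replicates came from separate cultures or animals, so the p-values measure the spread between these libraries, which may be technical.

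Vesicles are filled with transmitter by transporters in their membrane, are held near the release site by synapsins and Rab3, and dock at the active zone, a scaffold of large proteins. Fusion is driven by SNARE proteins on the vesicle (Vamp) and on the plasma membrane (syntaxin and SNAP-25), is held ready by complexins and Unc13 proteins, and is triggered by the calcium sensor synaptotagmin. After fusion, Nsf and Napa take the SNARE complexes apart. Hippocampal cultures hold excitatory neurons, which load glutamate, and inhibitory neurons, which make and load GABA.

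Total counts were 16369153 to 43048953 per library. The axonal libraries had a count for 4263 to 10242 genes and the soma libraries for 22452 to 24575. Levels are counts per 1000000 counts of the library (CPM). Markers of neurons were present in all 4 groups, with 8 of 8 counted in each, but so were those of astrocytes, with 9 of 9 counted in each. In the 5 control axon libraries the summed astrocyte markers were at 4791 to 25995 CPM and the neuron markers at 2404 to 5070 CPM, against 4970 to 20696 and 2726 to 5172 CPM in the 6 stretched axon libraries. Markers of the nucleus and dendrites, which axons should largely lack, were also counted in axonal libraries, with 8 of 8 and a sum of 1009 to 2785 CPM in control axons and 7 of 8 (Dlgap3 at 0) and 543 to 2924 CPM in stretched ones. Fibroblast and vascular markers reached 106 to 386 CPM in control axons (6 of 8 counted, Pdgfrb and Cldn5 at 0) and 0 to 1110 CPM in stretched ones (6 of 8, Pecam1 and Cldn5 at 0). Microglial markers were at 0 to 494 CPM (3 of 8; Aif1, Cx3cr1, P2ry12, Csf1r and C1qa at 0) and 0 to 401 CPM (7 of 8, P2ry12 at 0). Those of the oligodendrocyte lineage were at 0 to 438 and 0.0351 to 281 CPM, with 4 of 9 counted in each and Mag, Olig2, Cspg4 and Sox10 at 0 in both, Mbp in the control and Mog in the stretched ones. The part of other cells and of cell bodies in the axonal values below was not tested. In bulk RNA, fewer cells of a type and less RNA per cell cannot be told apart.

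Vamp2 (synaptobrevin 2, the main vesicle SNARE of forebrain neurons) and Vamp1 (synaptobrevin 1, its near relative) are shown because Vamp2 was called higher and Vamp1 lower in stretched soma, so it matters how far reads can tell them apart. The 120 coding bases below cover positions 70 to 189 of the 351 coding bases of Vamp2 and positions 76 to 195 of the 357 coding bases of Vamp1 (GRCm38, GENCODE M21), and capitals mark the 16 bases that differ.
Vamp2: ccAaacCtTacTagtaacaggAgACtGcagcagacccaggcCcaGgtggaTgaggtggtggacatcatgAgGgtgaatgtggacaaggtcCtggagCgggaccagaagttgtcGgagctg
Vamp1: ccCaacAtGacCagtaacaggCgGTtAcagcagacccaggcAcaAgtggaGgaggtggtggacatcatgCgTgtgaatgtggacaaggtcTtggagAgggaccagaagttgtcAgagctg
The windows were identical at 86.7% of positions and their longest shared run was 18 bases. Neither gene shared any run of 100 bases with another annotated transcript, and the same held for 38 of the 40 members. The exceptions were Syt11 (2.2% of its 100-base windows shared with 1500004A13Rik) and Cplx2 (2.5% with Gm47409). More than 10% of the exon bases of 5 members, Syp, Syn3, Syt4, Erc1 and Slc32a1, overlapped a gene on the other strand, from 11.8% (Erc1) to 24.9% (Slc32a1). The strand used in counting is not given in the sources used here. Whether reads within the overlap were counted for either gene or left out as ambiguous is therefore not known.

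To show the starts of genes that moved, members called in stretched soma were taken next. For those named by the rule given under the methods, the 250 bases before the start are shown where RefSeq (GRCm38.p6) had 1 start that lay at most 500 bases before the annotated gene: Unc13a (chr8:71671758-71672007, minus strand), Slc32a1 (chr2:158610508-158610757, plus strand) and Syngr1 (chr15:80091084-80091333, plus strand). Capitals mark TGACG, the half-site of the cAMP response element, and GGGCGG, the GC box bound by Sp1, on either strand.
Unc13a: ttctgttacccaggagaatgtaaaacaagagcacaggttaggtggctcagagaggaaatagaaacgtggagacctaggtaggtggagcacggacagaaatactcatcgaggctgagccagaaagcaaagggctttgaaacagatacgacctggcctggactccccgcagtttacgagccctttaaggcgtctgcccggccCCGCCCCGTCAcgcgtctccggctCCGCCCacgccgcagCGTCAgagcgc
Slc32a1: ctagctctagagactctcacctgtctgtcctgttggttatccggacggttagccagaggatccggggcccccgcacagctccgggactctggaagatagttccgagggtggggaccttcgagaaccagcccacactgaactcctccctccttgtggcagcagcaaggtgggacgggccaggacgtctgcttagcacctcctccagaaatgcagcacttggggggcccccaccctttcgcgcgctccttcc
Syngr1: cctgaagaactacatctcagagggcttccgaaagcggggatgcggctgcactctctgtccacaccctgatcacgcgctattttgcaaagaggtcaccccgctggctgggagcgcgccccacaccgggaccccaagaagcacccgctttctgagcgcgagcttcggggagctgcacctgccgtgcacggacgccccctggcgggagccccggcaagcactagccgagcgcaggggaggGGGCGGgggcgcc
The Unc13a window held 2 matches to TGACG and 2 to GGGCGG, none of which share bases, whereas the Syngr1 window held 1 GC box and the Slc32a1 window neither motif. Among the 32 members with a RefSeq entry, 10 had TGACG and 23 had GGGCGG in at least 1 window. Of all 32851 windows of this length, each taken singly, 17.8% and 32.7% had them. A gene can have more than 1 window, so these figures are not alike and no excess among the members can be read from them. Letter matches describe the sequence and are not evidence of binding, and a window without them says nothing about the factor.

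In control soma the members ran over a wide range of levels per kilobase of the longest annotated transcript. Rab3a, the small GTPase that tethers vesicles, was highest at 592 ± 61.9 CPM per kb (SD, n = 6), followed by Syngr3, a synaptogyrin of the vesicle membrane, at 322 ± 30.6 CPM per kb. Vamp2 at 216 ± 49.0, Nsf, the SNARE-separating ATPase, at 209 ± 9.94, and Syt11, a synaptotagmin that does not bind calcium, at 203 ± 15.7 CPM per kb lay within 1 SD of one another. At the low end were Slc32a1, the vesicular GABA transporter, at 1.35 ± 0.388, Vamp1 at 1.19 ± 0.314, Unc13b, a priming factor, at 0.754 ± 0.320, and Sv2c, the SV2 form best known from basal ganglia, at 0.249 ± 0.0635 CPM per kb. Taking the median transcript length of each gene instead put Nsf first at 1052 and Rab3a second at 673 CPM per kb, so the exact order depends on which isoform is assumed. Syp, which encodes the abundant vesicle protein synaptophysin, was ranked 29 of 40 at 8.38 ± 0.712 CPM per kb with the longest transcript. With the median transcript length it was ranked 22 at 51.4 CPM per kb.

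**Figure D1:**
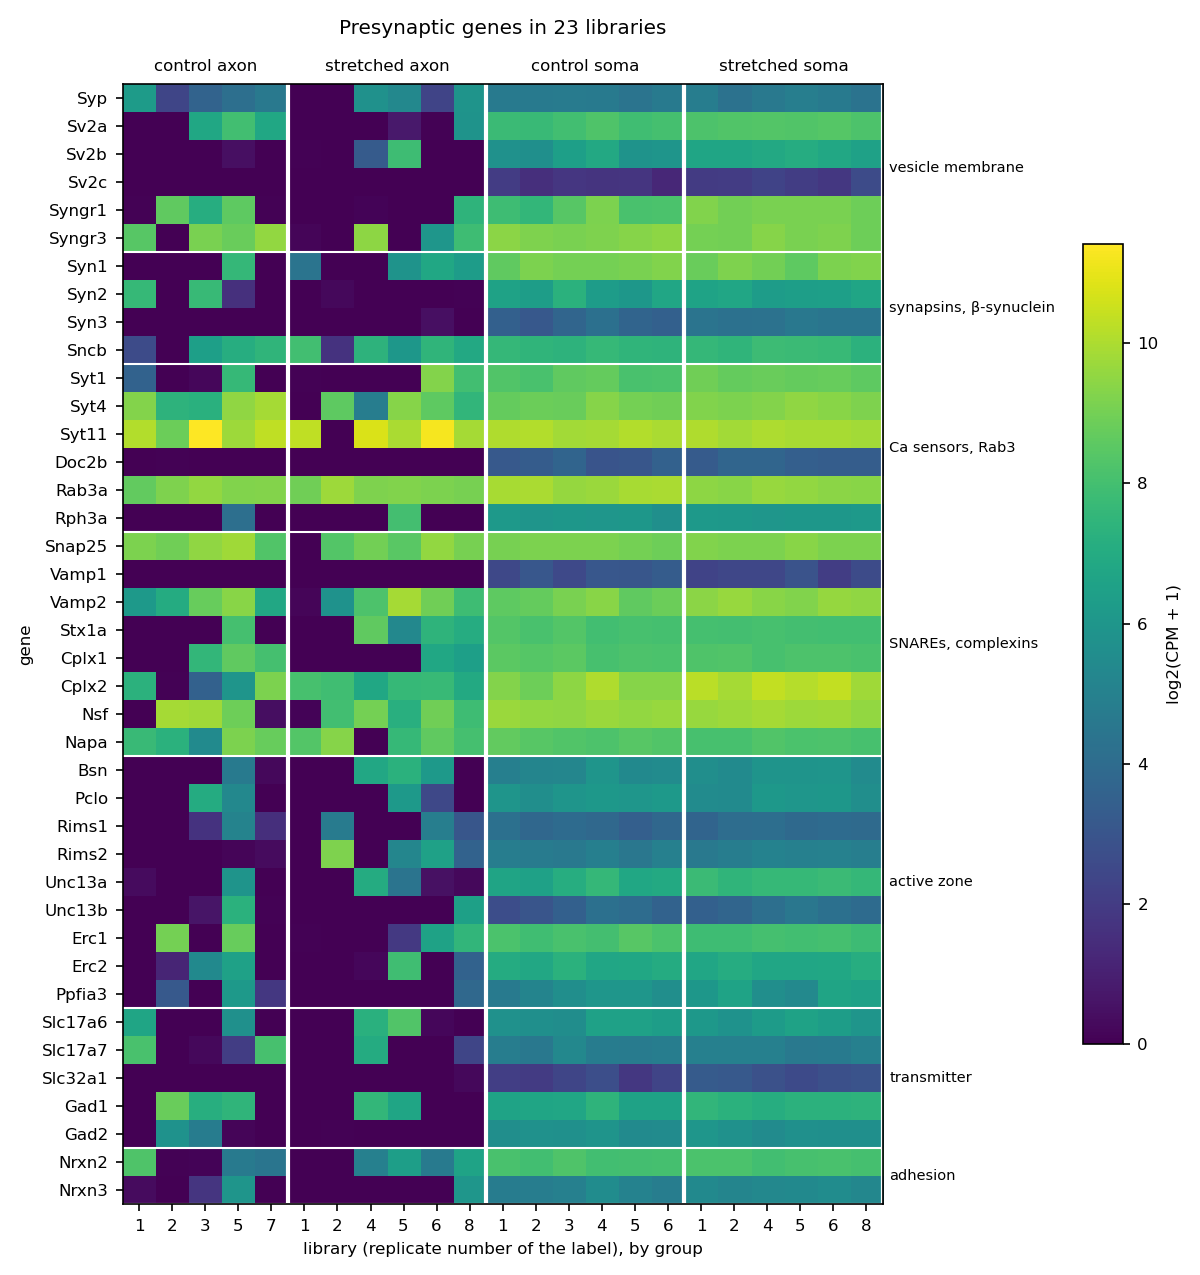
Levels of the 40 genes (rows, by role) in the 23 libraries (columns, by group and replicate number), as log2(CPM + 1). All 40 genes have counts in every soma library, while most rows are broken by libraries at 0 among the 11 axonal libraries, and Rab3a is the row most even across them.

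The first comparison asked what the pull did to these genes on the soma side. Of 40 members, 11 were higher and 4 lower in stretched soma than in control soma (edgeR quasi-likelihood F test, Benjamini-Hochberg adjusted p under 0.05 over all genes tested), and 25 did not pass. That is 37.5% of the members, beside 25.1% of the 15632 genes tested; by direction it is 27.5% higher beside 11.2%, and 10% lower beside 13.9%. The median log2 fold change was 0.07 over the members and -0.03 over all genes. Rises were between 1.23-fold (Syt4) and 1.74-fold (Slc32a1). Added together, the members made up 9690 ± 535 CPM in control soma and 10750 ± 470 CPM in stretched soma (SD, n = 6 each), and these ranges overlapped, at 9134 to 10712 against 10041 to 11257 CPM.

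Among the 6 vesicle membrane proteins, 3 rose and none fell. Syngr1, which encodes synaptogyrin 1, had a lowest, median and highest level of 186, 282 and 574 CPM in control soma and 476, 553 and 604 CPM in stretched soma. Only control replicate 4, at 574 CPM, lay in the stretched range, and the other 5 controls were below all 6 stretched libraries. Its log2 fold change was 0.74 ± 0.21 (SE), with an adjusted p of 0.0214. Sv2a, the widespread SV2 glycoprotein that is the target of levetiracetam, went from 214, 241 and 304 CPM to 298, 316 and 338 CPM (log2 fold change 0.31 ± 0.08, adjusted p 0.0171). Sv2b, its forebrain relative, went from 51.0, 59.5 and 116 CPM to 92.8, 109 and 131 CPM (0.61 ± 0.18, adjusted p 0.0228). For both, again, the only control in the stretched range was replicate 4. Sv2c had the same size of difference as Sv2b but did not pass, at 1.39, 2.34 and 3.13 CPM against 2.59, 3.12 and 5.18 CPM (0.57 ± 0.23, adjusted p 0.0809). The other synaptogyrin, Syngr3, was at 561, 622 and 706 CPM in control and 480, 537 and 637 CPM in stretched soma. Its log2 fold change of -0.25 ± 0.09 was just outside the threshold (adjusted p 0.0550). A difference in response between Syngr1 and Syngr3 was not tested. Syp did not pass (-0.04 ± 0.13).

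Of the 3 synapsins, which coat vesicles and link them to actin, and Sncb (beta-synuclein), only Syn3 rose. Syn3, the synapsin most linked with developing neurons, had a lowest, median and highest level of 7.72, 11.1 and 17.7 CPM in control soma and 18.4, 20.4 and 22.5 CPM in stretched soma. All 6 stretched libraries were above all 6 controls, and it was the only member whose groups did not overlap; 4.11% of all genes had groups apart in this sense. Its log2 fold change was 0.75 ± 0.16, with an adjusted p of 0.0070. Syn1 (-0.08 ± 0.12) and Syn2 (-0.09 ± 0.16), the synapsins of mature terminals, did not pass, nor did Sncb (0.08 ± 0.09). A difference in response between Syn3 and the other synapsins was not tested.

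Calcium sensors and the Rab3 branch moved in both directions. Syt1, the sensor for fast release, was at 276, 301 and 417 CPM in control and 386, 427 and 487 CPM in stretched soma, and it rose by 0.36 ± 0.11 on the log2 scale (adjusted p 0.0218). Syt4, a synaptotagmin with a changed calcium site, was at 421, 480 and 642 CPM against 573, 616 and 727 CPM (0.30 ± 0.10, adjusted p 0.0386); it lies outside the naming rule and was named after its values were seen. Rab3a went the other way, from 782, 966 and 1003 CPM to 659, 693 and 811 CPM, and fell by 0.41 ± 0.09 on the log2 scale (adjusted p 0.0077). Its groups overlapped only through control replicate 3, at 782 CPM, and stretched replicate 4, at 811 CPM. With offsets for transcript length and GC content the value was -0.13 ± 0.08 and the call was lost (adjusted p 0.297). Doc2b (0.15 ± 0.16), a soluble calcium sensor, Syt11 (-0.11 ± 0.08) and Rph3a (0.06 ± 0.08), the Rab3 effector rabphilin, did not pass.

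Within the SNARE group, 2 of 8 rose and 2 fell. Vamp2 had a lowest, median and highest level of 385, 435 and 659 CPM in control soma and 606, 713 and 791 CPM in stretched soma. Control replicate 4 at 659 CPM was inside the stretched range, and all other controls were below it. The log2 fold change was 0.54 ± 0.12, with an adjusted p of 0.0084. Vamp1 was far scarcer per kilobase, at 1.19 beside 216 CPM per kb in control soma, and went from 4.50, 7.40 and 9.02 CPM to 3.26, 4.36 and 6.48 CPM (-0.61 ± 0.21, adjusted p 0.0490), with overlapping groups. Cplx2, a complexin that clamps and primes SNARE complexes, rose by 0.68 ± 0.16 on the log2 scale (adjusted p 0.0109), from 470, 645 and 1052 CPM to 887, 1164 and 1330 CPM. The other complexin, Cplx1, did not pass (-0.16 ± 0.09), and neither did Snap25 (0.10 ± 0.07) or Nsf (0.06 ± 0.07). Napa, the adaptor alpha-SNAP that brings Nsf to the complex, fell by 0.28 ± 0.09 on the log2 scale (adjusted p 0.0279), from 302, 332 and 400 CPM to 268, 282 and 320 CPM. Stx1a (syntaxin 1A) was at 248, 277 and 329 CPM against 244, 257 and 268 CPM and did not pass (-0.20 ± 0.08, adjusted p 0.0812). Vamp1 and Erc1, described next, were also named after their values were seen.

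Most of the 9 active zone genes did not pass. Unc13a, the main Munc13 priming factor of forebrain synapses, was the 1 that rose, from 91.0, 115 and 193 CPM to 178, 200 and 217 CPM (0.64 ± 0.14, adjusted p 0.0085), and control replicate 4 was again its highest control. Erc1, a scaffold protein of the ELKS family found in many tissues, fell from 239, 282 and 349 CPM to 223, 238 and 265 CPM (-0.26 ± 0.09, adjusted p 0.0487). Its relative Erc2, the more brain-restricted form, had a log2 fold change of -0.13 ± 0.10. The giant scaffolds Bsn (0.31 ± 0.15) and Pclo (-0.19 ± 0.13), the Rab3-binding Rims1 (0.06 ± 0.14) and Rims2 (0.09 ± 0.11), Unc13b (0.45 ± 0.26) and the liprin Ppfia3 (0.60 ± 0.26) did not pass.

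Among the transmitter genes both calls were on the GABA side. Gad1, which encodes the GABA-making enzyme GAD67, had a lowest, median and highest level of 92.8, 99.5 and 169 CPM in control soma and 137, 162 and 180 CPM in stretched soma. It rose by 0.50 ± 0.13 on the log2 scale (adjusted p 0.0154). Control replicate 4 stood at 169 CPM, and the other 5 controls lay between 92.8 and 108 CPM. Slc32a1 rose by 0.80 ± 0.21 (adjusted p 0.0138), from 2.61, 3.66 and 5.61 CPM to 4.98, 6.41 and 8.70 CPM. Gad2, the gene of the other GABA-making enzyme GAD65, was at 50.4 ± 6.20 against 52.1 ± 5.80 CPM (SD, n = 6 each) and did not pass (0.01 ± 0.10). The glutamate transporters Slc17a6 (0.03 ± 0.19) and Slc17a7 (-0.05 ± 0.13) did not pass either, and nor did the neurexins Nrxn2 (-0.01 ± 0.07) and Nrxn3 (0.29 ± 0.13), which hold the terminal to its partner.

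**Figure D2:**
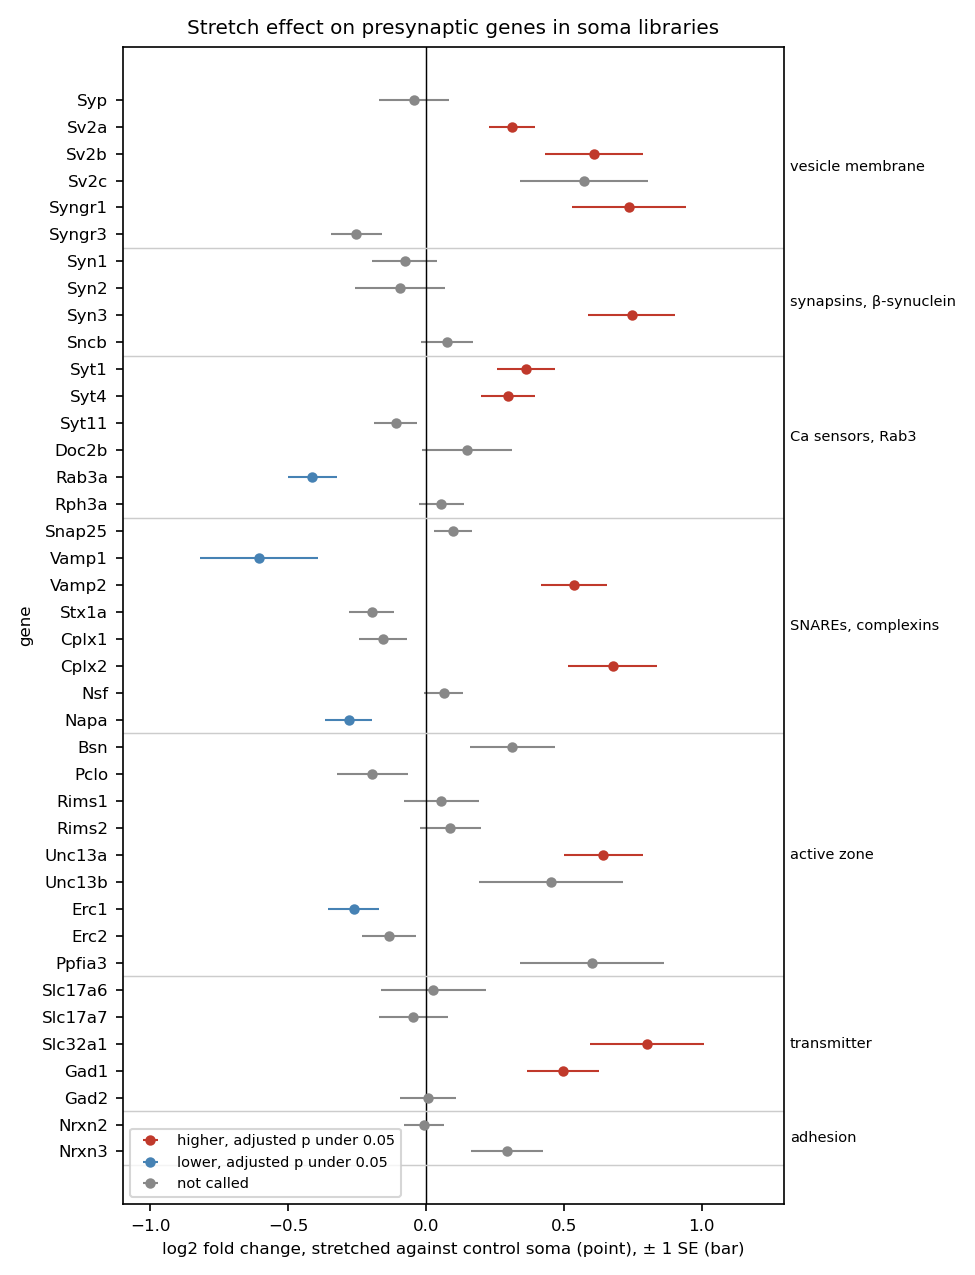
Log2 fold change of each gene in stretched against control soma (x axis; point, estimate; bar, 1 SE), by role (y axis), with genes past the threshold in colour. The 11 rises and 4 falls are spread over 6 of the 7 role groups, and relatives such as Vamp1 and Vamp2 or Syngr1 and Syngr3 lie on opposite sides of 0.

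Control replicate 4 of the soma libraries stood nearer to the stretched group for most of these genes. For 11 of the 11 members that rose it was the highest control and lay nearer to the stretched mean than to the mean of the other 5 controls, and for 10 of them it was inside the stretched range. Of the 4 that fell it was nearer to the stretched mean for 3. The library was singled out by these same values. Wider separation of the rising members without it follows from that choice and adds no support for their calls. Without this library 13 members were higher and 6 lower, but the share over all genes rose too, to 18.2% higher and 20.1% lower (38.3% in all). Groups then did not overlap for 11 members, all higher, beside 14.0% of all genes in that direction and 23.5% in either, and Nrxn3 was among them with Syngr1, Syn3, Sv2a, Sv2b, Syt4, Vamp2, Cplx2, Unc13a, Slc32a1 and Gad1. Syngr1 then had a log2 fold change of 0.97 ± 0.12 (adjusted p 5.79e-05) and Gad1 of 0.64 ± 0.07 (adjusted p 2.72e-05), while the adjusted p of Vamp1 became 0.0534.

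The soma libraries also fell into sets by Eif2s3y, a Y-linked gene, with control replicates 1, 2 and 3 and stretched replicates 1, 2 and 8 at 24.7 to 28.7 CPM and the other 6 libraries at 5.39 to 13.2 CPM, a split chosen after seeing the data. Within the first set 13 members were higher and 4 lower, where 29.2% of all genes tested were called. Within the second 0 members and 0 of 15718 genes were called, or 16 members and 27.5% of genes once control replicate 4 was left out. That left only control replicates 5 and 6 against stretched replicates 4, 5 and 6. Control replicate 4 was singled out by the members' own values, so these calls add no support. With the set as a covariate 13 members were higher and 5 lower, where 33.9% of genes were called. A fit over all 4 groups, in which soma shares its estimate of the spread with the axonal libraries, called 0 members and 0 of 16113 genes.

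**Figure D3:**
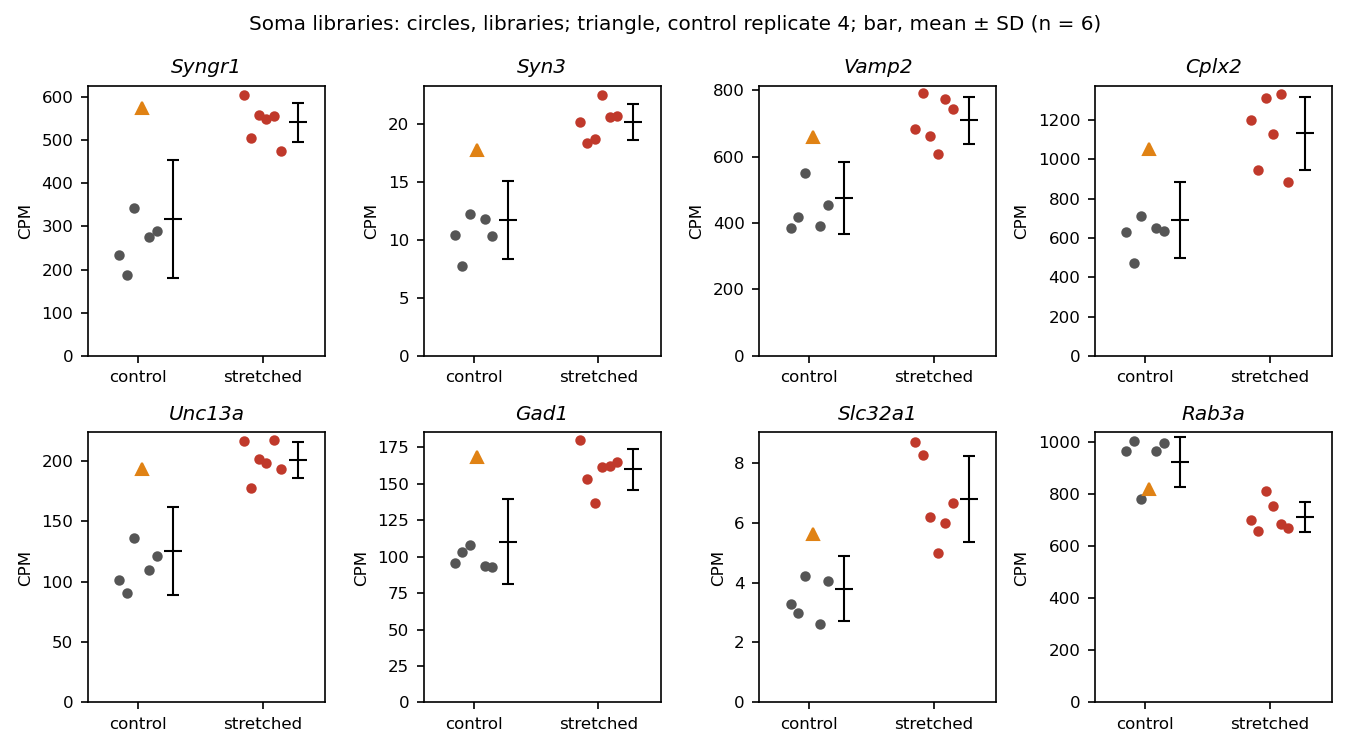
CPM (y axis, from 0) of 8 genes in the 6 control and 6 stretched soma libraries; circles are libraries, the triangle is control replicate 4, and the bar is the mean ± SD. In all panels but that of Rab3a, the triangle lies above the other 5 controls, and for Syngr1, Vamp2, Cplx2, Unc13a, Gad1 and Slc32a1 it lies among the stretched libraries.

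Calls that did not depend on any 1 library were those of Sv2a, Syngr1, Syn3, Rab3a, Vamp2, Cplx2, Unc13a, Slc32a1 and Gad1, 8 rises and 1 fall, though that of Rab3a was lost with length and GC offsets. Syt1 lost its call without control replicate 2 or 6 or stretched replicate 1 (adjusted p 0.0515 to 0.0548), and Sv2b without control replicate 1 or 6 (0.0505 to 0.0522). Napa lost it without control replicate 1, 2 or 5 or stretched replicate 1, 2 or 8 (0.0513 to 0.0642), and Syt4 without control replicate 1, 2, 3 or 6 or stretched replicate 1, 5 or 6 (0.0623 to 0.0878). Vamp1 lost it without any of 9 libraries, all but control replicates 1 and 3 and stretched replicate 5 (0.0534 to 0.11), and Erc1 without any of 9, all but control replicates 2 and 4 and stretched replicate 6 (0.0559 to 0.161). Syngr3 gained a call without control replicate 3 or 4 or stretched replicate 4 (0.0195 to 0.0373), and Stx1a without control replicate 4 (0.0107).

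Other cell markers moved with the same comparison. The neuron markers summed to 7605 ± 671 CPM in control and 6728 ± 186 CPM in stretched soma (SD, n = 6 each; 6746 to 8418 against 6438 to 6927 CPM), and of 8, 5 were lower (Tubb3, Rbfox3, Nefm, Gap43 and Stmn2) and 1 higher (Dcx). None of the 9 astrocyte markers was called, and their sums were 5276 to 14367 and 5523 to 11692 CPM. The 8 microglial markers summed to 38.4 to 76.3 and 28.3 to 36.4 CPM, with C1qa and C1qb lower, the 9 oligodendrocyte lineage markers to 42.8 to 74.1 and 39.9 to 57.5 CPM, with Mog higher and Sox10 at 0 throughout, and the 8 fibroblast and vascular markers to 140 to 261 and 162 to 265 CPM, with Dcn lower. The 11 rises among the members therefore stood beside a lower summed level of neuron markers. Nucleus and dendrite markers summed to 2166 ± 414 CPM in control and 1479 ± 294 CPM in stretched soma (SD, n = 6 each; 1713 to 2713 against 1159 to 1894 CPM), with Malat1 and Camk2a lower and Shank1 higher. The part of cell composition in the members' values was not tested. Transcript length also went with the fold change, with a Spearman rho of 0.46 over 15619 genes and of 0.21 over the 40 members, and with offsets for length and GC content 9 members were higher and 5 lower, beside 5.95% and 9.91% of genes. The offsets ended the calls of Sv2b, Syt1, Syt4, Rab3a and Napa (adjusted p 0.0586 to 0.381) and added Sncb (higher) and Syt11, Pclo and Erc2 (lower).

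Other genes of the terminal, from lists of 90 genes of which 89 matched, were tested in the same fit. Of 60 further release genes tested, 12 were higher and 5 lower in stretched soma (median log2 fold change 0.12), and of 27 genes of vesicle endocytosis and recycling 7 were higher and 5 lower (median 0.18). Over all 15632 genes tested the shares were 11.2% higher and 13.9% lower. The largest rises among those at 10 CPM or more were of Lin7c, a scaffold partner at the terminal (0.64 ± 0.17, adjusted p 0.0173), Itsn1, an endocytic scaffold (0.63 ± 0.16, adjusted p 0.0143), and Rimbp2, which links Rim proteins to calcium channels (0.63 ± 0.17, adjusted p 0.0175). The largest falls were of Sh3gl3, endophilin A3 (-1.22 ± 0.26, adjusted p 0.0077), Itsn2 (-0.75 ± 0.17, adjusted p 0.0081) and Ap2s1, a subunit of the AP-2 clathrin adaptor (-0.48 ± 0.10, adjusted p 0.0068). The intersectins Itsn1 and Itsn2 thus had opposite signs, as Vamp2 and Vamp1 did.

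In axons the first question was which of these transcripts were there at all. Every soma library had counts for all 40 members, while the control axon libraries had counts for 18, 17, 25, 36 and 21 of them (replicates 1, 2, 3, 5 and 7; mean 23.4 ± 7.70, SD, n = 5) and the 6 stretched axon libraries for 12 to 29, with a mean of 20.3 ± 7.06 (SD, n = 6). The ranges overlapped, and the difference in means was smaller than either SD. Control replicate 5, with 36 members, also had the most genes with a count, 10242. Requiring 10 counts lowered the means to 20.0 and 17.5.

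Rab3a, Vamp2 and Cplx2 were counted in all 11 axonal libraries. A further 6 were counted in 10 of 11: Sncb, Syt4, Syt11, Snap25, Nsf and Napa. Sv2c and Vamp1 had no count in any axonal library, Syn3 and Doc2b a count in 1, and Rph3a and Slc32a1 in 2. Detection followed abundance, with a Spearman rho of 0.77 across the 40 members between the number of axonal libraries with a count and the mean soma level in CPM, and of 0.75 across the 15632 genes tested in soma; points share the same libraries, and genes are not replicates. Of the 13 members at 300 CPM or more in soma, 79.7% of gene and library pairs had a count, beside 91.5% for the 540 genes of that level. At 100 to 300 CPM it was 60.2% for 8 members beside 71.9%, at 10 to 100 CPM 41.8% for 15 members beside 39.9%, and below 10 CPM 6.82% for 4 members beside 13.6%. Syn1 stood low for its level, with a count in 5 axonal libraries at a mean of 524 CPM in soma, and Syp high, in 9 libraries at 23.8 CPM. Both were picked out after their values were seen.

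**Figure D4:**
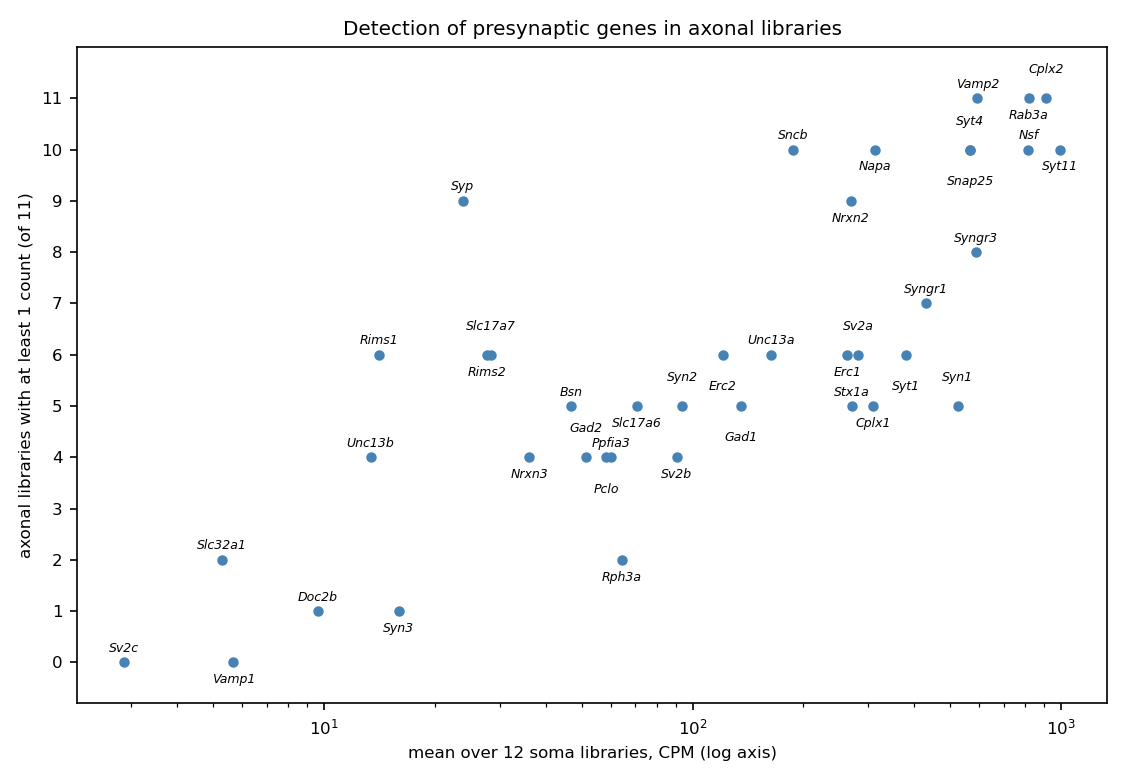
Number of the 11 axonal libraries with at least 1 count (y axis) against the mean level over 12 soma libraries in CPM (x axis, log), 1 point per gene. Genes counted in 10 or 11 axonal libraries all lie above 100 CPM in soma, and those counted in 2 or fewer lie below 100 CPM.

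Rab3a was the most even of the members in axons. Its levels were 406, 597, 760, 598 and 620 CPM in the control axon libraries, and 488, 576 and 855 CPM at the lowest, median and highest of the stretched ones. The groups overlapped throughout, and the highest library was only 2.11 times the lowest. Over the 817 genes above 3 counts in all 11 axonal libraries the median of that ratio was 7.01, and 13 genes had a smaller one than Rab3a; for the 203 of them at a mean of 400 to 1000 CPM it was 6.25. Vamp2, by contrast, was at 72.2, 127, 430, 672 and 112 CPM in control axons and 0.114, 266 and 935 CPM in stretched ones. Cplx2 was at 161, 0.0499, 10.5, 61.2 and 566 CPM in control axons and 108, 203 and 275 CPM in stretched ones, so the stretched libraries lay inside the wider control range. Syt11 reached the highest axonal level of any member in CPM, 2719 in control replicate 3, and had no count in stretched replicate 2.

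**Figure D5:**
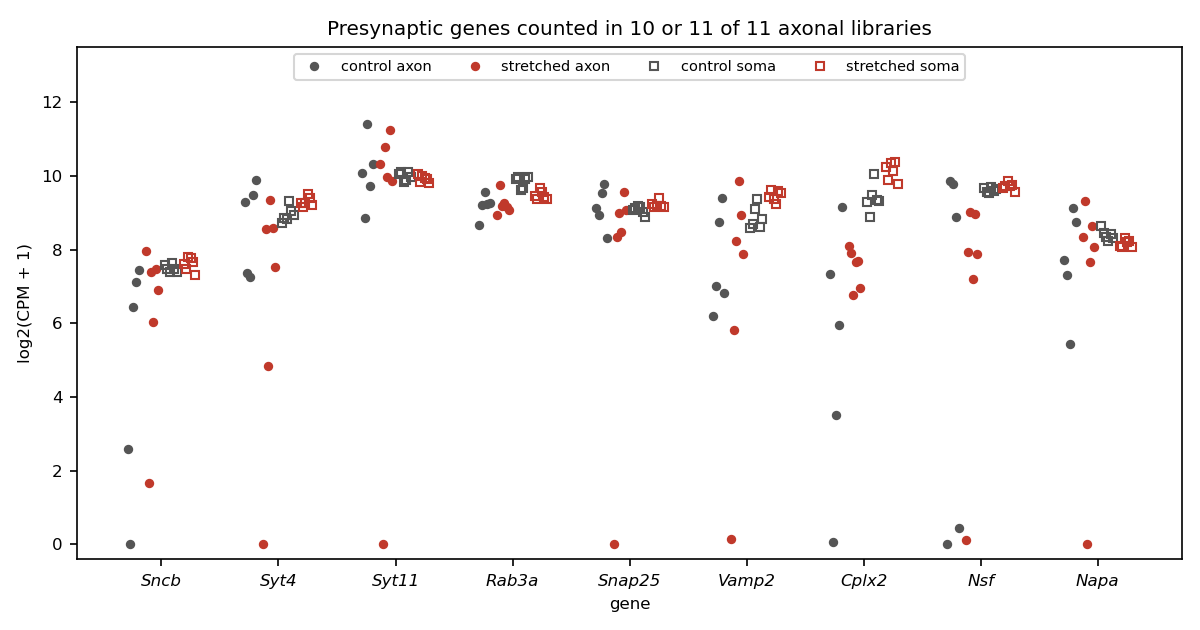
Level as log2(CPM + 1) (y axis) of the 9 genes counted in 10 or 11 axonal libraries (x axis); filled circles are axonal and open squares soma libraries, grey control and red stretched. Axonal points spread from 0 to above the soma points for most genes, whereas those of Rab3a stay close together, between 406 and 855 CPM.

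None of the members tested for stretch in axons was called. The filter on low counts left 21 of the 40 members, and 0 of 21 were called, as were 0.0% of the 4947 genes tested; none of the members and 46 of the genes had an unadjusted p under 0.05 in edgeR, and the DESeq2 Wald test called 17 genes and 0 members. The smallest p values were those of Sv2a, at 0, 0, 109, 249 and 110 CPM in control and 0, 0.0260 and 57.5 CPM (lowest, median, highest) in stretched axons (log2 fold change -3.25 ± 2.99, unadjusted p 0.293), Cplx1, at 0, 0, 190, 394 and 266 CPM against 0, 0 and 109 CPM (-2.37 ± 2.92, unadjusted p 0.430), and Slc17a7, at 282, 0, 0.176, 3.16 and 271 CPM against 0, 0 and 127 CPM (-2.28 ± 2.94, unadjusted p 0.452). Each had libraries at 0 in both groups. The spread was large, with a biological coefficient of variation of 2.39 in axons and 0.240 in soma, and in simulated counts of this comparison the test called 4.76% of genes changed by 4 on the log2 scale. A fit over all 4 groups, which tested all 40 members, called Sv2b, Syn3 and Rims2 higher and Syn2 and Gad2 lower, where 24.0% of the 16113 genes tested were called; none of these 5 passed the filter within axons, and they passed it there through their soma counts. Of 42 other presynaptic genes tested in axons, 0 were called.

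Axons against soma were compared within each condition. In controls 0 members were higher and 8 lower in axons, which is 20% lower beside 34.4% of the 14728 genes tested (0.856% were higher). The median log2 fold change of the members was -1.38 beside -1.40 over all genes. Members at or near 0 counts in axons made up most of the calls. Sv2c, Vamp1, Syn3, Doc2b, Slc32a1, Rims2 and Sv2b passed the low-count filter only through their soma counts. Lower in axons was therefore the only direction open to their calls. Sv2c, Vamp1 and Syn3 had no count in the 5 control axon libraries; with a floor of 3 counts per library, Sv2c was at least 17.8-fold, Vamp1 at least 53.3-fold and Syn3 at least 92.3-fold lower than in soma. Doc2b, with 1 count in all, was lower by a ratio of 1162 (95% counting interval 209 to 45895), and Slc32a1, also with 1 count, by 490 (88.0 to 19364); intervals and floors cover counting error only. Rims2 had 12 counts, in control replicates 5 and 7, against 22.0, 26.7 and 30.0 CPM in soma (log2 fold change -8.49 ± 1.64, adjusted p 0.0011), and Sv2b had 16 counts, all in replicate 5 (-9.80 ± 2.11, adjusted p 0.0025).

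Of the well counted members Rab3a alone was called in controls, at 406 to 760 CPM in axons and 782 to 1003 CPM in soma with no overlap (log2 fold change -0.87 ± 0.21, adjusted p 0.0053). The direction rests on how axonal and soma libraries were scaled. With DESeq2 size factors the median over all genes moved from -1.40 to -0.27 and Rab3a to 0.69 (adjusted p 0.0339). Relative to that median Rab3a lay higher by 0.53 with TMM scaling and by 0.96 with DESeq2 size factors. Next came Cplx2 (-2.38 ± 1.33, adjusted p 0.254), Rph3a, counted only in replicate 5 at 17.1 CPM (-4.22 ± 2.37, adjusted p 0.260), and Syn1, also counted only in replicate 5, at 191 CPM (-3.84 ± 2.52, adjusted p 0.366). Leaving out that library gave 18 calls, where 53.6% of all genes tested were called, with Syn1 and Rph3a among them at adjusted p 8.41e-07 and 1.75e-05. Syn1 and Rph3a then had no count in control axons and were in the fit only through their soma counts. Groups did not overlap for 14 members beside 41.6% of all genes.

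In stretched cultures 0 members were higher and 9 lower in axons, 22.5% lower beside 28.4% of the 14466 genes tested (0.843% were higher), with a median of -2.10 beside -1.13. Setting members with 0 or 1 count at their bound or ratio left both medians, -1.38 and -2.10, as they were. This was certain beforehand, because even the smallest bound, 17.8-fold for Sv2c in controls, lies below both medians. Cplx2 was the clearest of the well counted genes, at 108, 203 and 275 CPM (lowest, median, highest) in stretched axons and 887, 1164 and 1330 CPM in stretched soma, without overlap (log2 fold change -3.08 ± 0.24, adjusted p 1.35e-06). Vamp1 (at least 32.9-fold lower), Sv2c (at least 24.9-fold lower) and Doc2b (at least 73.5-fold lower) had no count there. Gad2 had 1 count in stretched axons against 52.1 ± 5.80 CPM in soma (SD, n = 6), a ratio of 6985 (1254 to 275902), while Gad1 reached 186 CPM there in replicate 4 and was not called. Syn2, Slc32a1 and Syn3 had 4, 4 and 7 counts in all. Like Vamp1, Sv2c, Doc2b and Gad2, they passed the low-count filter only through their soma counts. Lower in axons was the only direction open to the calls of these members. Rab3a was at 488 to 855 CPM against 659 to 811 CPM (-0.71 ± 0.18, adjusted p 0.0082), and DESeq2 size factors turned it to 0.98, with the median over all genes moving from -1.13 to 0.18; with total counts alone it was -0.23 (adjusted p 0.509). Syn1 (-3.93 ± 1.63, adjusted p 0.11), Sv2a (-5.26 ± 2.28, adjusted p 0.131) and Ppfia3 (-5.26 ± 2.43, adjusted p 0.165) were next, and without stretched replicate 8 there were 14 calls, where 43.3% of all genes tested were called, with Sv2a (adjusted p 0.000456) and Ppfia3 (1.54e-05) among them. Without that library Sv2a and Ppfia3, too, were in the fit only through their soma counts. Groups did not overlap for 17 members beside 35.9%.

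Among the other presynaptic genes, 24 of 86 were lower in control axons and 17 of 86 in stretched axons, and none was higher in either. Of all genes tested, 34.4% were lower in control axons and 28.4% in stretched ones. Rab3gap1, a GTPase-activating partner of Rab3, and Vamp3 (cellubrevin) had no count in control axons, so that Rab3gap1 was at least 353-fold and Vamp3 at least 309-fold lower than in soma. Stxbp5l (tomosyn 2) and Ppfia4 (liprin alpha 4) had none in stretched axons, where the first was at least 410-fold and the second at least 253-fold lower. Tspoap1, a Rim-binding protein, was lower in both, with 1 count in control axons and 40 counts in stretched ones (-8.05 ± 1.90, adjusted p 0.0049, in stretched). The genes named here also passed the low-count filter only through their soma counts, which left lower as the only direction open.

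Whether stretch acted differently in axons and soma was tested as an interaction over all 4 groups, coded as the axonal change minus the soma change. It was called for 3 members, 2 negative and 1 positive, or 7.5% beside 21.8% of the 16113 genes tested (8.93% negative and 12.8% positive). Gad2 (-10.10 ± 2.26) was at 0, 55.3, 26.6, 0.116 and 0 CPM in control axons and had 1 count in 1 of 6 stretched axon libraries. Syn2 (-10.89 ± 2.50) was at 200, 0, 205, 1.97 and 0 CPM in control axons and at 0.183 CPM or less in stretched ones. Rims2 (10.15 ± 2.62) was at 0, 0, 0, 0.116 and 0.272 CPM in control axons and at 0, 23.6 and 585 CPM (lowest, median, highest) in stretched ones. All 3 had an adjusted p of 0.0161, and all had libraries at 0 in both axonal groups, so the sizes of these fitted values depend on the prior count. The soma levels of the same genes differed little, at 50.4 and 52.1 CPM for Gad2, 95.7 and 92.1 CPM for Syn2, and 26.4 and 28.9 CPM for Rims2. None of the 3 passed the low-count filter in the axon comparison itself, and they entered this fit through their soma counts. A replicate block left 0 members and 6 of 16113 genes called, so the values stand as a description of these libraries. Without control axon replicate 5, or without stretched axon replicate 8, the interaction was called for 9 members, where 27.6% and 23.8% of all genes tested were called. Of 87 other presynaptic genes it was called for 12 positive and 6 negative, led by Sh3gl3, Unc13c and Vamp3 (14.81, 13.62 and 13.52) and by Syt7, Ppfia4 and Rims4 (-12.67, -12.20 and -11.71); Ppfia4 and Rims4 lost the call without control axon replicate 5 (adjusted p 0.124 and 1.00), and Unc13c turned to -0.09 without stretched axon replicate 2.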

How the data were processed

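RNA of 23 libraries in 4 groups was measured, per the labels' protocols, as poly(A) RNA amplified with a low-input kit and sequenced as read pairs with unique molecular identifiers. The authors deposited whole-number read counts per Ensembl gene. The submitters' processing notes name fastp 0.20.1, STAR 2.7.08a, HTSeq 0.13.5 and mm10; the annotation, the strand setting and any use of the identifiers are not given in the sources used here. Uncounted reads (no gene, ambiguous or not unique), 14.2% to 24.4% of a library, stayed out of all totals.

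For a comparison of 2 groups only their libraries entered the fit, while the interaction used all 4 groups, with edgeR 4.0.16 (filterByExpr, TMM, robust quasi-likelihood F test, Benjamini-Hochberg over all genes tested, threshold 0.05). The standard error (SE) is the log2 fold change divided by the root of F. Levels in CPM use library totals without TMM factors. Depth sets a floor of 3 counts, between 0.0697 and 0.183 CPM; amplified reads are not independent molecules. Each fit was tested on simulated counts. The soma fit called 16.3% of genes changed by 0.5 on the log2 scale and 71.4% of those changed by 1. A member that did not pass in soma is therefore not shown to be unchanged. Of genes changed by 4, the axon fit called 4.76%, axons against soma 0 in controls and 11.4% in stretched cultures, and the interaction 2.04%. The simulation gave a gene the same spread in all libraries of a fit, whereas the real spread was far larger in axons than in soma. The real fits of axons against soma called 35.3% of genes in controls and 29.3% in stretched cultures. For fits that join axons and soma the simulated rates therefore do not describe these data.

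Values are printed for all called members where 12 or fewer were called, otherwise for the 12 with the smallest adjusted p, for the 3 next above the threshold, and, in axons and for the interaction, for the 3 with the smallest p. Of the other presynaptic genes, the 3 highest and 3 lowest called ones at 10 CPM or more are named. Members and lists were chosen with earlier results of these data known. Alternatives were other scalings, no filter, DESeq2 1.42.0, a replicate block, leaving out each library, 1 fit for all groups, length and GC offsets, sets by Y-linked genes and other detection limits. The replicate numbers did not pair the libraries by a correlation of deviations over 0.1 in every pair. The main fits therefore left out pairing, which remains possible for the soma libraries.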

Additional observations from a re-analysis of the deposited data

Results flagged for a closer look

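Of 88 groups of values checked for a library far from the rest of its group, 6 held one, where chance gives about 1 in 20. Control soma replicate 4 accounted for 3 of them. It had 10712 CPM for the members added together, where the other 5 controls had 9134 to 9671 CPM, 169 CPM for Gad1 and 46.5 CPM for Nrxn3. Syp was at 19.9 CPM in control soma replicate 5, where the other controls had 24.0 to 25.8 CPM. Slc17a7 was at 39.7 CPM in control soma replicate 3, where the others had 22.6 to 27.9 CPM. Snap25 was at 675 CPM in stretched soma replicate 5, where the others had 568 to 599 CPM.

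The interaction test of stretch by compartment was past its threshold for Gad2 (-10.10 on the log2 scale), Syn2 (-10.89) and Rims2 (10.15), each with an adjusted p of 0.0161 in edgeR. For Gad2, 3 of 5 control axon libraries and 1 of 6 stretched axon libraries had a count, and for Rims2 2 of 5 and 4 of 6. None of the 3 passed the low-count filter within axons, and the replicate block left 0 of these calls, so a stretch effect that differs between axons and soma is not shown by them.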

How the results depend on the processing

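The count of members called in stretched soma was 15, where 25.1% of all genes were called. It was within 1.5 times (10 to 19) under other scalings, no filter, DESeq2, length and GC offsets and each library left out. Over these settings the share of all genes called ran from 9.22% (no filter) to 38.3% (without control replicate 4). In a fit over all 4 groups and in the low Eif2s3y set 0 members and 0 genes were called. With the planned Y-linked split as covariate, which left control replicate 5 alone in its set, 9 members (8 higher, 1 lower) and 17.6% of genes were called. The cause was not tested. In axons the count of 0 became 5 (3 higher, 2 lower) in the fit over all 4 groups, which tested all 40 members and called 24.0% of all genes. Leaving out 1 library moved the axon against soma counts from 8 to between 8 and 18 in controls and from 9 to between 9 and 14 in stretched cultures, and the interaction from 3 to between 3 and 9. The highest values came without control axon replicate 5 (18 and 9, where 53.6% and 27.6% of all genes were called) and without stretched axon replicate 8 (14 and 9, where 43.3% and 23.8% were).

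Single genes that changed sign were Stx1a in soma with length and GC offsets (0.0357, and 0.0828 with the replicate block as well), Rab3a in axons against soma with DESeq2 size factors or the DESeq2 test (0.69 and 0.69 in controls, 0.98 and 0.98 in stretched cultures), and Unc13c in the interaction without treated axon replicate 2 (-0.0860). Of 672 values of the 24 genes named for stretch in soma, 535 stayed on their side of the threshold, 123 lost the call, 12 gained it and 2 changed sign. In axons, DESeq2 size factors moved the median of all genes from 0.02 to -0.16. Total counts were 16369153 to 43048953 in axonal and 20457514 to 30732600 in soma libraries.

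The replicate block, on libraries whose number occurs in both groups, gave 13 members in soma (12 without the block on the same libraries), 0 in axons, 10 and 23 in axons against soma (control and stretched) and 0 for the interaction, where 20.7% of all genes were called in soma, 35.2% and 53.1% in axons against soma and 0.0372% for the interaction. Deviations of same-numbered libraries correlated at a mean of 0.19 in soma (lowest pair 0.0906), 0.04 in axons, and 0.05 and 0.0044 in axons against soma. For differently numbered libraries the means were -0.03 in soma (-0.39 to 0.33), -0.0036 in axons, and -0.0078 and -0.00088 in axons against soma. Because not every pair passed 0.1, the main fits took the numbers as names only. The replicate numbers that both soma groups hold also fell in the same Eif2s3y set. Replicates 1 and 2 were in the higher set in both groups, and replicates 4, 5 and 6 in the lower. A pairing of the soma libraries therefore remains possible, and the main p-values do not take it into account.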

Other observations

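Close relatives among the members differed in the number of axonal libraries with a count. Vamp2 was counted in 11 of 11 and Vamp1 in 0, Cplx2 in 11 and Cplx1 in 5, Syt4 and Syt11 in 10 and Syt1 in 6, and Syngr3 in 8 and Syngr1 in 7. In the families listed here, the relative counted in fewer libraries was also the scarcer in soma. Mean soma levels were 593 and 5.68 CPM for Vamp2 and Vamp1, and 913 and 309 CPM for Cplx2 and Cplx1. They were 566, 994 and 380 CPM for Syt4, Syt11 and Syt1, and 589 and 429 CPM for Syngr3 and Syngr1. Other relatives did not all follow this order. Slc17a7 was counted in 6 libraries at a mean of 28.3 CPM in soma, and Slc17a6 in 5 at 70.6 CPM. Syn1 and Syn2 were both counted in 5, at 524 and 93.9 CPM in soma. A difference in detection beyond abundance was not tested.

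Transmitter genes were patchy in axons. Gad1 was at 443, 141 and 176 CPM in control axon replicates 2, 3 and 5 and had no count in replicates 1 and 7, while Slc17a7 was at 282 and 271 CPM in replicates 1 and 7 and at 3.16 CPM or less in the other 3. In stretched axons, replicate 4 had the highest level of both, at 186 CPM for Gad1 and 127 CPM for Slc17a7. No relation between them was tested. In soma both varied far less, at 92.8 to 169 CPM for Gad1 and 22.6 to 39.7 CPM for Slc17a7 in controls.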
